A study of Mus musculus with 14 samples.

Results

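The 9 genes described here, Bax, Bbc3, Pmaip1, Bcl2l11, Fas, Tnfrsf10b, Cdkn1a, Ccng1 and Mdm2, are well-known targets of the transcription factor p53 or direct parts of the cell death machinery. They were chosen by symbol, all 9 were present among the 38444 genes counted in the series, and no threshold on their values was part of the rule. The question they address is whether germ cells that arrest in meiosis without DNMT3C carry the RNA of a death programme. DNMT3C is the DNA methyltransferase that methylates the promoters of young retrotransposons in the fetal male germline of rodents.

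Polyadenylated RNA was sequenced from flow-sorted germ cells of Dnmt3C KO/KO (KO) and wild-type (WT) littermates on a C57Bl6/J background. Spermatogonia (Spg), the premeiotic cells, came from mice at postnatal day 14 and were sorted as EpCAM-positive, β2-microglobulin-negative living cells, with 3 libraries for each genotype. Spermatocytes (Spc), the meiotic cells, came from mice older than 20 days and were sorted by DNA content (Hoechst) among cells that excluded propidium iodide, with 4 libraries for each genotype. KO germ cells arrest at pachytene. Spermatid markers summed to 20.3 to 301 CPM (counts scaled to a library of 1000000, with TMM factors over the 14 libraries) in WT spermatocyte libraries and to 2.31 to 6.31 CPM in KO, so genotype and the stages present cannot be told apart in that comparison. The stages differ in age and sort as well. The sources used here do not say whether a library is 1 mouse or a pool, so p-values measure the spread between these libraries.

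As background, p53 is held at a low level by MDM2, the ubiquitin ligase that marks it for degradation and whose own gene p53 activates. When DNA damage or another stress frees p53, it turns on the cell cycle inhibitor CDKN1A (p21), cyclin G1 (CCNG1), which recruits a phosphatase that acts on MDM2, and the BH3-only death proteins BBC3 (PUMA) and PMAIP1 (NOXA). These, with BCL2L11 (BIM), unleash BAX, which permeabilises the outer mitochondrial membrane. FAS and TNFRSF10B (the mouse TRAIL receptor, DR5) start death from the cell surface. In the testis, meiotic cells that fail to repair or synapse their chromosomes are removed by apoptosis at pachytene.

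On the GRCm38 assembly Bax (ENSMUSG00000003873.11) lies at chr7:45461697-45466898 on the minus strand and Bbc3 (ENSMUSG00000002083.13) at chr7:16308393-16318205 on the plus strand. Bcl2l11 (ENSMUSG00000027381.16) spans chr2:128126038-128162547 on the plus strand, Fas (ENSMUSG00000024778.13) chr19:34290666-34327772 on the plus strand and Tnfrsf10b (ENSMUSG00000022074.6) chr14:69767472-69784411 on the plus strand. Cdkn1a (ENSMUSG00000023067.14) is at chr17:29090976-29100727 on the plus strand, Ccng1 (ENSMUSG00000020326.7) at chr11:40748552-40755311 on the minus strand and Mdm2 (ENSMUSG00000020184.15) at chr10:117688875-117710758 on the minus strand. The identifier of Pmaip1 is ENSMUSG00000024521.8. All 9 are protein-coding, and the values below count reads over the whole gene.

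The promoters were searched for the p53 decamer, the 10-base unit of the p53 response element, on both strands. RefSeq windows of 250 bases before to 50 bases after the start site (GRCm38.p6) were on hand for 7 of the 9 genes, in 11 windows. The decamer was found in 4 of the 11 member windows (36.4%), against 8.36% of 32851 promoter windows of all genes. The genes were chosen as known p53 targets or direct parts of the cell death machinery, and several windows belong to 1 gene. The share thus describes the choice and is not a result. The matches lay in Bax, Mdm2, Ccng1 and the upstream Cdkn1a window, which held 2. They are shown 5′ to 3′ on the strand of the gene, the decamer in capitals, to let the sequences be set beside the values that follow.
Bax, chr7:45467090-45467099, at −201 from the start site: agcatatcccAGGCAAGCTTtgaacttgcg
Ccng1, chr11:40755462-40755471, at −185 from the start site: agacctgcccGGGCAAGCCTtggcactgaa
Mdm2, chr10:117710935-117710944, at −186 from the start site: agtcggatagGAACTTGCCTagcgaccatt
Cdkn1a, chr17:29090906-29090915, at −73 from the start site: tcctgggtggGGACTAGCTTtctggccttc
Cdkn1a, chr17:29090928-29090937, at −51 from the start site: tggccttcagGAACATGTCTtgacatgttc
The windows of Bbc3, Bcl2l11 and Fas held no such decamer within these 300 bases. The palindromic NRF1 core, the motif of a factor that the study follows, was in 0 of the 11 member windows and in 0.971% of all windows. The member windows had a median of 27 CpG dinucleotides and 64.7% GC, against 7 and 52.7% over all windows. A match of letters is a description of the window and says nothing of binding. Mdm2 holds a decamer as Bax and Ccng1 do, and its RNA moved the other way in spermatocytes, as given below.

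Each library held between 40555726 and 53323651 counts. Dnmt3c itself, the targeted gene, had 58 to 116 counts in KO spermatogonia against 53 to 89 in WT, and 52 to 57 in KO spermatocytes against 11 to 28 in WT. KO libraries thus had no less of its RNA at either stage, and since the sources used here do not describe the deleted part, gene-level counts could not check the genotype. Marker lists set the libraries in order. The 4 pachytene markers summed to 4746 to 7573 CPM in WT spermatocytes and to 123 to 234 CPM in KO. In WT spermatogonia they summed to 313, 1006 and 169 CPM and in KO spermatogonia to 81.3, 78.9 and 88.1 CPM. The 7 spermatogonial markers summed to 37.1 to 272 CPM in WT spermatocytes, 432 to 1095 CPM in KO spermatocytes and 1128 to 1783 CPM in spermatogonia of either genotype. The 5 early meiotic markers had overlapping sums in spermatocytes, at 971 to 1791 CPM in KO and 909 to 1750 CPM in WT. Of these markers 3 were called higher in KO and 0 lower, where 58.8% of all genes were called (28.0% higher), and their median log2 fold change was 2.03. Markers of other testis cells stood higher in KO spermatocytes than in WT for 3 lists. Peritubular and stromal markers summed to 276 to 3598 against 31.2 to 42.4 CPM, Leydig markers to 53.4 to 318 against 13.9 to 29.5 CPM, and macrophage markers to 42.8 to 180 against 5.04 to 19.5 CPM. Sertoli markers overlapped, at 236 to 829 against 105 to 416 CPM, and none of the 5 was called. No list had a defining marker at 0 in all libraries of either spermatocyte group, for the markers present in the tables of both stages. Prm1, the fourth spermatid marker, is in the spermatocyte table alone and so not in the sums, and like the other 3 it was called lower in KO spermatocytes. In bulk RNA of sorted cells, more cells of a type and more RNA per cell cannot be told apart.

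**Figure D1:**
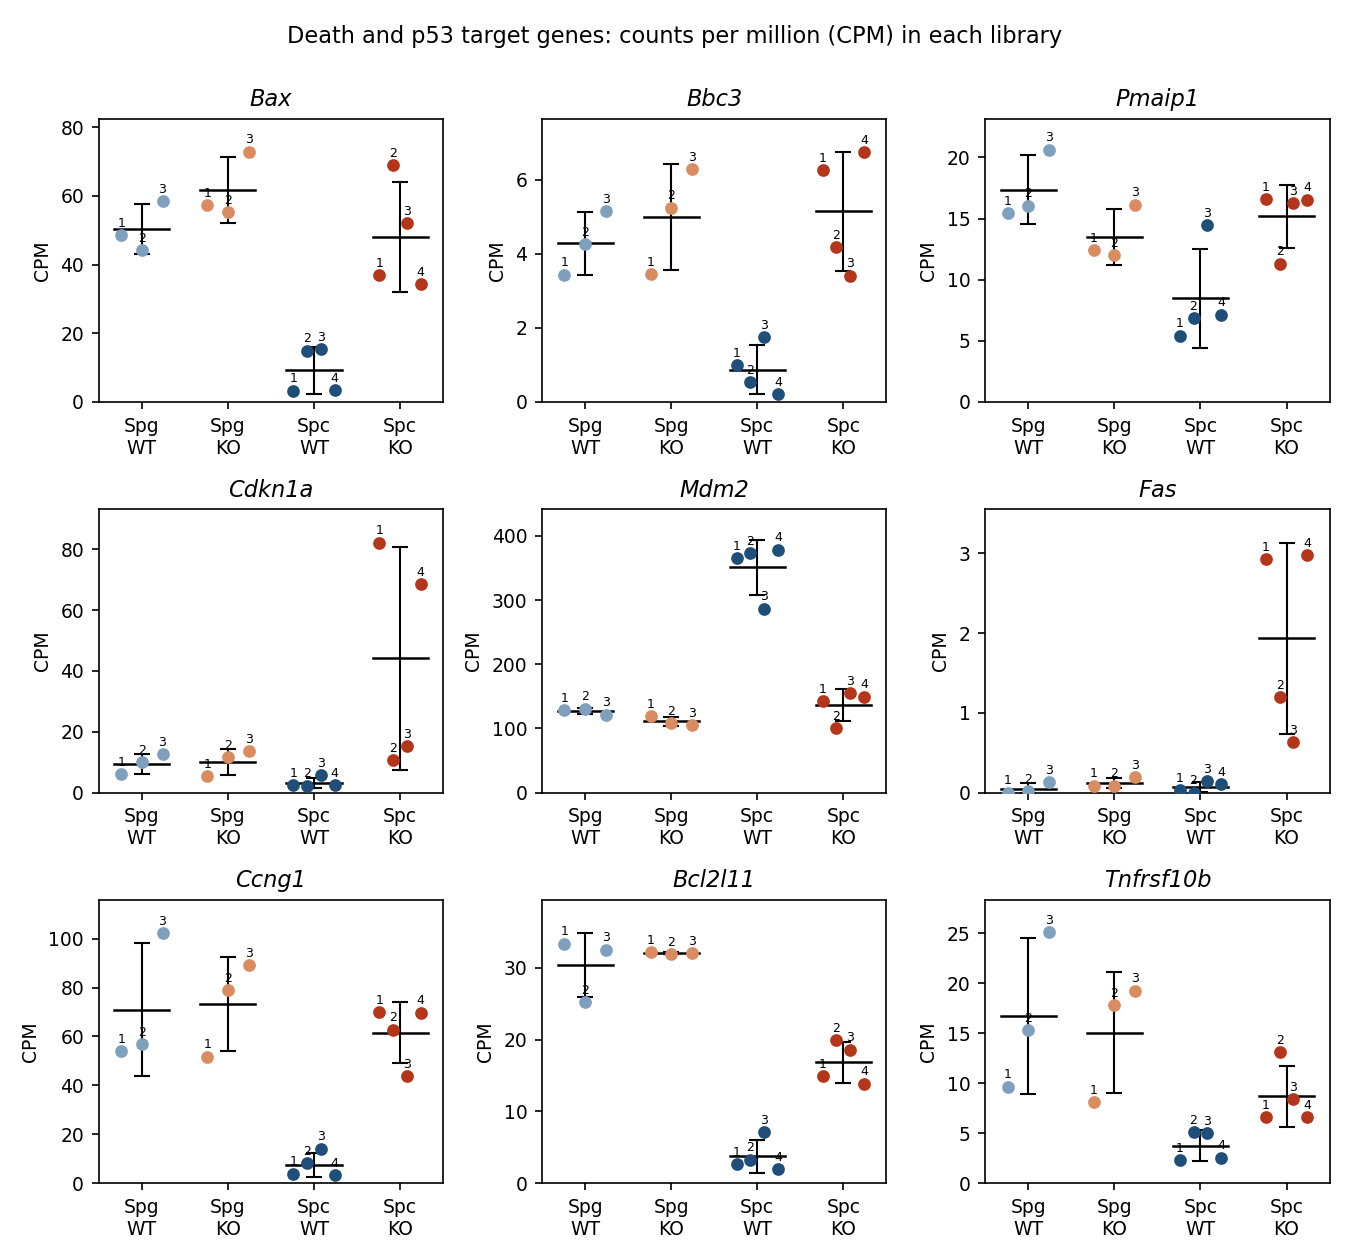
CPM (vertical axis, linear, from 0) of the 9 genes in each of the 14 libraries, by group on the horizontal axis. Points are libraries with their replicate number, the horizontal line is the group mean and the bar 1 SD to either side, ended at 0 where it would pass below. WT spermatocytes are the lowest group for Bax, Bbc3, Ccng1 and Bcl2l11 and the highest for Mdm2, and Cdkn1a and Fas are highest in KO spermatocyte libraries 1 and 4.

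In spermatogonia none of these genes passed the test between KO and WT. None of the 8 members tested was called at an adjusted p under 0.01 (edgeR quasi-likelihood test, Benjamini-Hochberg over all genes and transposon subfamilies tested), against 9 of 20659 genes overall (0.0436%, of which 0.0387% higher and 0.00484% lower). None had an unadjusted p under 0.05 either, and DESeq2 called 0 of the 8. With the replicate number as a block, since same-numbered spermatogonia libraries varied together, 108 genes were called and again 0 members. Fas was too low to be tested. Within same-numbered pairs, Bax and Bbc3 were higher and Pmaip1 and Mdm2 lower in KO in 3 of 3 pairs, and the other 4 members tested went both ways. Over all genes tested 35.5% had 1 direction in every pair, 21.0% higher and 14.5% lower. In the blocked fit the log2 fold changes were 0.26 for Bax (adjusted p = 0.495), 0.16 for Bbc3 (adjusted p = 0.889), −0.40 for Pmaip1 (adjusted p = 0.437) and −0.23 for Mdm2 (adjusted p = 0.547).

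Bax read 57.2, 55.2 and 72.8 CPM in KO and 48.5, 44.1 and 58.4 CPM in WT spermatogonia. The groups overlapped at WT library 3, and the log2 fold change was 0.27 (SE 0.16, adjusted p = 0.963). Bbc3 read 3.46, 5.25 and 6.28 CPM in KO and 3.44, 4.26 and 5.15 CPM in WT. These nearly coincided, with a log2 fold change of 0.19 (95% interval −0.54 to 0.92). Bcl2l11 was the steadiest of the BH3-only genes, at 32.1, 31.9 and 31.997 CPM in KO and 33.3, 25.2 and 32.5 CPM in WT. Its interval, −0.33 to 0.41 on the log2 scale, was narrower than all but that of Mdm2. Pmaip1 read 12.4, 12.03 and 16.1 CPM in KO and 15.4, 16.1 and 20.6 CPM in WT, a log2 fold change of −0.39 (interval −0.89 to 0.11). Cdkn1a read 5.39, 11.6 and 13.6 CPM in KO and 6.02, 9.91 and 12.6 CPM in WT. Here the replicates spanned a wider range than the genotypes, as they did for Ccng1, at 51.8, 78.9 and 89.1 CPM in KO and 53.9, 56.7 and 102 CPM in WT. Tnfrsf10b read 8.10, 17.8 and 19.2 CPM in KO and 9.65, 15.3 and 25.1 CPM in WT.

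Mdm2 was the only member whose spermatogonia libraries did not overlap, at 119, 108 and 105 CPM in KO and 128, 131 and 122 CPM in WT. Over all genes tested 12.2% had groups without overlap, 5.95% higher and 6.28% lower in KO, and the log2 fold change of −0.23 did not pass the test (interval −0.50 to 0.04, adjusted p = 0.817). Pachytene markers also summed higher in the WT than in the KO spermatogonia, and their part in the Mdm2 difference was not tested. Fas had 5, 5 and 11 counts in KO and 0, 1 and 7 in WT, near the limit of what these libraries can show. Of the pair of death receptors, Tnfrsf10b was thus clearly present in spermatogonia of both genotypes and Fas almost absent.

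In spermatocytes 7 of the 9 members were called, 6 higher in KO and Mdm2 lower. The share has to be read against the whole comparison, in which 12885 of 21919 genes were called (58.8%), 28.0% higher and 30.7% lower. The median log2 fold change of the 9 members was 2.43, against 0.11 over all genes. In 8 members the KO and WT libraries did not overlap, as in 67.4% of all genes (33.5% higher, 33.9% lower). The scaling matters at this stage. With library totals in place of TMM the median over all genes moved from 0.11 to 0.79, and the genes called split into 8074 higher and 4880 lower, against 6145 and 6740 with TMM. No member changed direction under it.

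Among the mitochondrial death genes, Bax read 36.9, 68.8, 52.1 and 34.2 CPM in KO and 3.33, 14.9, 15.3 and 3.37 CPM in WT spermatocytes. Every KO library lay above every WT library, and the log2 fold change was 2.43 (SE 0.54, adjusted p = 0.00274). Within WT, libraries 2 and 3 stood above 1 and 4 in Bax and also in spermatogonial markers, which summed to 42.0, 151, 272 and 37.1 CPM in WT libraries 1 to 4. The part of such cells in the Bax value was not tested.

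Bbc3, which encodes the p53-induced BH3-only protein PUMA, read 6.27, 4.17, 3.41 and 6.74 CPM in KO and 0.988, 0.543, 1.75 and 0.209 CPM in WT. The groups did not overlap, and the log2 fold change was 2.58 (SE 0.59, adjusted p = 0.00314). The call rested on few WT counts, 6 to 73 per library, and was lost without WT library 2 (log2 fold change 2.38, adjusted p = 0.0106), with libraries 1 and 4 of each genotype summed (2.32, adjusted p = 0.0127) and with the replicate block (2.81, adjusted p = 0.0111). Bcl2l11, which encodes BIM, read 14.9, 19.9, 18.6 and 13.9 CPM in KO and 2.62, 3.26, 7.11 and 1.91 CPM in WT. It was higher in all 4 KO libraries, with a log2 fold change of 2.205 (SE 0.43) and an adjusted p of 0.00122.

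Pmaip1, which encodes NOXA, read 16.6, 11.3, 16.2 and 16.5 CPM in KO and 5.43, 6.84, 14.5 and 7.13 CPM in WT. WT library 3 lay above KO library 2, and the log2 fold change of 0.87 was not called (SE 0.36, adjusted p = 0.0509). Without WT library 3, which held the most spermatogonial marker RNA of the WT libraries, it was called at 1.25 (adjusted p = 0.00411).

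The death receptors differed in level. Fas had 145, 67, 33 and 146 counts in KO and 1, 0, 6 and 3 counts in WT spermatocytes. In CPM it read 2.93, 1.2004, 0.629 and 2.97 in KO and at most 0.144 in WT. The fitted log2 fold change was the highest of the 9, at 4.72 (SE 0.83, adjusted p = 0.000683), and since it divides by so few WT counts it moved to 5.41 without WT library 3. Tnfrsf10b read 6.61, 13.1, 8.41 and 6.60 CPM in KO and 2.28, 5.12, 5.01 and 2.54 CPM in WT. Its groups did not overlap, but the log2 fold change of 1.25 missed the threshold (SE 0.40, adjusted p = 0.0176).

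The cell cycle targets gave the next highest fold changes. Cdkn1a read 82.2, 10.6, 15.2 and 68.5 CPM in KO and 2.44, 2.32, 5.77 and 2.40 CPM in WT. All KO libraries were above all WT libraries, the log2 fold change was 3.79 (SE 0.71, adjusted p = 0.000983), but KO libraries 1 and 4 stood far above 2 and 3. Ccng1 read 70.0, 62.8, 43.9 and 69.8 CPM in KO and 3.95, 8.11, 14.1 and 3.34 CPM in WT. It varied less across the KO libraries than Cdkn1a and had the lowest adjusted p of the 9 (log2 fold change 3.10, SE 0.45, adjusted p = 0.000231).

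Mdm2, the negative regulator of p53, went the other way. It read 143, 101, 155 and 149 CPM in KO and 365, 373, 287 and 379 CPM in WT spermatocytes. Every WT library was above every KO library, and the log2 fold change was −1.34 (SE 0.21, adjusted p = 0.000304). With library totals it was −0.63 (adjusted p = 0.00656).

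**Figure D2:**
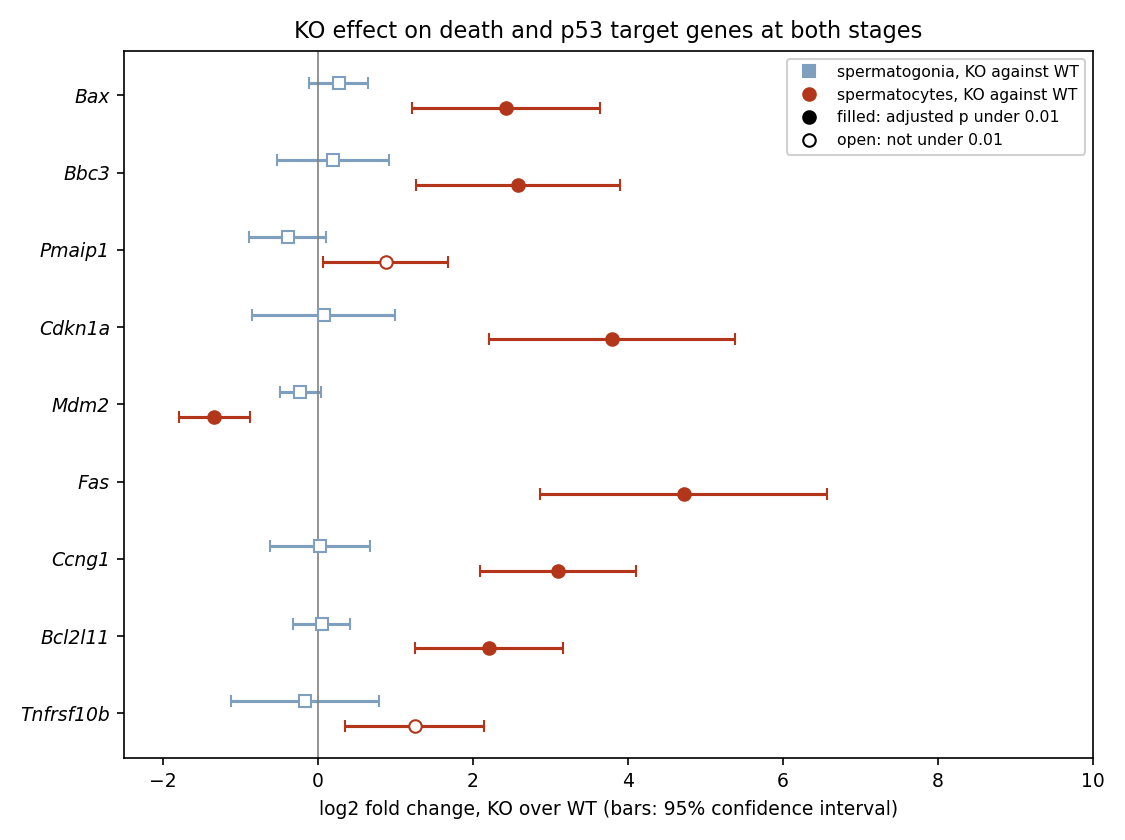
Log2 fold change of KO over WT (horizontal axis) for each gene, in spermatogonia (squares) and spermatocytes (circles), with 95% confidence intervals as bars. Filled symbols passed an adjusted p of 0.01 and open ones did not. Fas has no spermatogonia value. In spermatogonia the intervals all include 0, and in spermatocytes 6 filled symbols lie above 0 and Mdm2 lies below it.

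The KO effect differed between the stages for 4 members in a test of the difference itself, made in 1 fit over the 14 libraries, in which 25.7% of 24340 genes were called, 11.1% with a higher and 14.6% with a lower effect. For Ccng1 the log2 effect was larger in spermatocytes by 3.02 (SE 0.61, adjusted p = 0.00206), and its call held whichever of the 14 libraries was omitted. The other differences were 3.67 for Cdkn1a (adjusted p = 0.00654), 2.09 for Bcl2l11 (adjusted p = 0.00574) and −1.17 for Mdm2 (adjusted p = 0.00241). Leaving out any KO spermatogonia library or WT spermatogonia library 3 ended the calls of Cdkn1a, Bcl2l11 and Mdm2. So did WT spermatogonia library 1 for Bcl2l11 and Mdm2, WT spermatocyte libraries 1 and 2 for Cdkn1a and Bcl2l11, and WT spermatocyte library 4 and KO spermatocyte libraries 1 and 4 for Cdkn1a. The adjusted p then reached at most 0.0176 for Cdkn1a, 0.0119 for Bcl2l11 and 0.0132 for Mdm2. With library totals the difference of Mdm2 was −0.43 and not called (adjusted p = 0.124). With the replicate number as a block Cdkn1a was not called (3.31, adjusted p = 0.0187) and Bax was (2.39, adjusted p = 0.00433). Without KO spermatocyte libraries 1 and 4 Cdkn1a (1.97, adjusted p = 0.0365) and Mdm2 (−1.19, adjusted p = 0.0113) were not called, nor were Cdkn1a and Bcl2l11 with replicates summed. Bax (2.08, adjusted p = 0.0247), Bbc3 (2.32, adjusted p = 0.0208), Pmaip1 (1.202, adjusted p = 0.0477), Fas (3.42, adjusted p = 0.0643) and Tnfrsf10b (1.36, adjusted p = 0.0874) were not called by edgeR, whereas DESeq2 called Bax (2.10, adjusted p = 0.0067) and Bbc3 (2.32, adjusted p = 0.00305). The estimate for Fas fell to 1.37 without WT spermatogonia library 3, where 7 of its 8 WT spermatogonia counts lay. Bax and Bbc3 were called without WT spermatocyte library 3, at 2.43 (adjusted p = 0.00854) and 2.90 (adjusted p = 0.0027), as was Pmaip1 at 1.58 (adjusted p = 0.00242).

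The 4 group levels show where the spermatocyte differences sit. From WT spermatogonia to WT spermatocytes 5 members were called lower and Mdm2 higher, against 52.5% of all genes called, 29.2% higher and 23.3% lower. Their libraries did not overlap in 8 members (7 lower, 1 higher), as in 66.0% of all genes, 35.3% higher and 30.8% lower. The falls on the log2 scale were 3.26 for Ccng1, 3.02 for Bcl2l11, 2.45 for Bax, 2.28 for Bbc3 and 2.15 for Tnfrsf10b, with adjusted p between 2.19e-05 and 0.00175. Mdm2 rose by 1.47 (SE 0.18, adjusted p = 2.06e-05). Cdkn1a (−1.55, adjusted p = 0.0441) and Pmaip1 (−1.04, adjusted p = 0.0122) were not called, though Pmaip1 was in 17 of 23 alternatives, among them DESeq2 (adjusted p = 0.0014), the block (adjusted p = 0.00723) and library totals (−1.76, adjusted p = 0.00131). In the stage comparisons the block joins same-numbered libraries of mice of different ages, so it reflects no pairing. Fas was near 0 counts at both stages (0.52, interval −1.81 to 2.86).

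From KO spermatogonia to KO spermatocytes 0 of the 9 members were called by edgeR, where 3.05% of all genes were, 3.01% higher and 0.037% lower. Of the 9, 3 had an unadjusted p under 0.05, and DESeq2 called 1, Fas. The log2 differences of Bax (−0.36, interval −1.39 to 0.66), Bbc3 (0.04, interval −1.05 to 1.13), Ccng1 (−0.25, interval −1.15 to 0.65), Pmaip1 (0.17, interval −0.53 to 0.87) and Mdm2 (0.30, interval −0.07 to 0.68) all had intervals that include 0. Bcl2l11 was lower by 0.93 in KO spermatocytes with no overlap (adjusted p = 0.125), as in 26.4% of genes (15.4% higher, 11.1% lower), and Tnfrsf10b by 0.80 (adjusted p = 0.275). The largest positive differences were 3.95 for Fas (adjusted p = 0.0163), whose libraries did not overlap, and 2.11 for Cdkn1a (adjusted p = 0.0691), whose libraries did, and edgeR called neither. Thus the mean of Bax was 61.7 ± 9.63 CPM (SD, n = 3) in KO spermatogonia, 48.0 ± 15.9 CPM (SD, n = 4) in KO spermatocytes, 50.3 ± 7.32 CPM (SD, n = 3) in WT spermatogonia and 9.22 ± 6.78 CPM (SD, n = 4) in WT spermatocytes. The group means of Ccng1 stood in the same order, with 61.6 ± 12.3 CPM (SD, n = 4) in KO and 7.36 ± 4.94 CPM (SD, n = 4) in WT spermatocytes. Both genotype comparisons at a stage and both stage comparisons share these groups, so their values are set side by side and not counted as separate evidence.

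Set per kilobase of exon, so that genes can be compared, Mdm2 was the most abundant member in WT spermatocytes at 69.1 ± 8.48 CPM per kb (SD, n = 4), followed by Bax at 5.85 ± 4.30 and Pmaip1 at 3.10 ± 1.49. Bax and Pmaip1 overlapped across libraries, and Mdm2 overlapped with no other member. In KO spermatocytes Bax came first at 30.5 ± 10.1 CPM per kb, before Mdm2 at 26.9 ± 4.86, Ccng1 at 17.5 ± 3.50 and Cdkn1a at 12.4 ± 10.3, and neighbours in this order overlapped. Pmaip1 followed at 5.55 ± 0.946, then Bbc3 at 2.42 ± 0.757, Bcl2l11 at 2.09 ± 0.358, Tnfrsf10b at 1.59 ± 0.559 and Fas at 0.938 ± 0.582. Of those pairs of neighbours, Pmaip1 and Bbc3 did not overlap. In WT spermatogonia the order began with Bax at 31.9 ± 4.64, Mdm2 at 24.9 ± 0.921 and Ccng1 at 20.2 ± 7.74 CPM per kb (SD, n = 3), and Fas stood last at 0.024 ± 0.033.

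The 4 KO spermatocyte libraries did not carry these genes alike. Cdkn1a, Fas, Bbc3, Ccng1 and, by a small margin over library 3, Pmaip1 were higher in libraries 1 and 4 than in 2 and 3, while Bax, Bcl2l11 and Tnfrsf10b were lower there and Mdm2 was mixed. Leydig markers summed to 318, 53.4, 59.3 and 260 CPM in libraries 1 to 4 and Sertoli markers to 829, 311, 236 and 781 CPM, whereas spermatogonial markers summed to 440, 1090, 1095 and 432 CPM. Peritubular and stromal markers followed another order, at 3598, 3401, 276 and 3076 CPM, and macrophage markers at 105, 180, 42.8 and 102 CPM. Libraries 1 and 4 of each genotype were also much more alike than other pairs. A chi-square over features per degree of freedom was 11.6 for the KO pair and 14.9 for the WT pair, against 129 to 286 for the other spermatocyte pairs, a measure that covers counting error only. Amplified reads exceed that error even in repeat libraries of 1 sample, so whether libraries 1 and 4 are separate samples cannot be told from it. The study's figure legends give 3 biological replicates per genotype for spermatocytes, whereas 4 libraries per genotype carry labels. They were kept apart as labelled, and results with them summed are given where a call changes. If libraries 1 and 4 repeat 1 sample, the p-values and SDs from 4 libraries are too small.

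Without KO libraries 1 and 4, a choice made after seeing the data, 6 members were still called, 5 higher and Mdm2 lower, where 9203 of 24124 genes were called. Cdkn1a then had a log2 fold change of 2.01 (SE 0.50, adjusted p = 0.0092), against 3.79 with all libraries, and Fas 3.63 (SE 0.90, adjusted p = 0.00905), against 4.72. Bbc3 was no longer called (2.13, adjusted p = 0.0291). Bax (2.74), Ccng1 (2.88), Bcl2l11 (2.39) and Mdm2 (−1.45) moved little and stayed called. In KO libraries 2 and 3 Cdkn1a, at 10.6 and 15.2 CPM, was within or near its range of 5.39 to 13.6 CPM in KO spermatogonia. Against those spermatogonia its log2 difference was 0.28 without libraries 1 and 4, and 2.11 with them. KO library 3 had the lowest sums of peritubular and macrophage markers of the KO libraries, at 276 and 42.8 CPM. Both were above every WT spermatocyte library, which had at most 42.4 and 19.5 CPM. Fas in KO library 3 had 33 counts, the fewest of the KO libraries and more than any library of the other groups. The part of somatic cells in the Cdkn1a and Fas values was not tested.

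**Figure D3:**
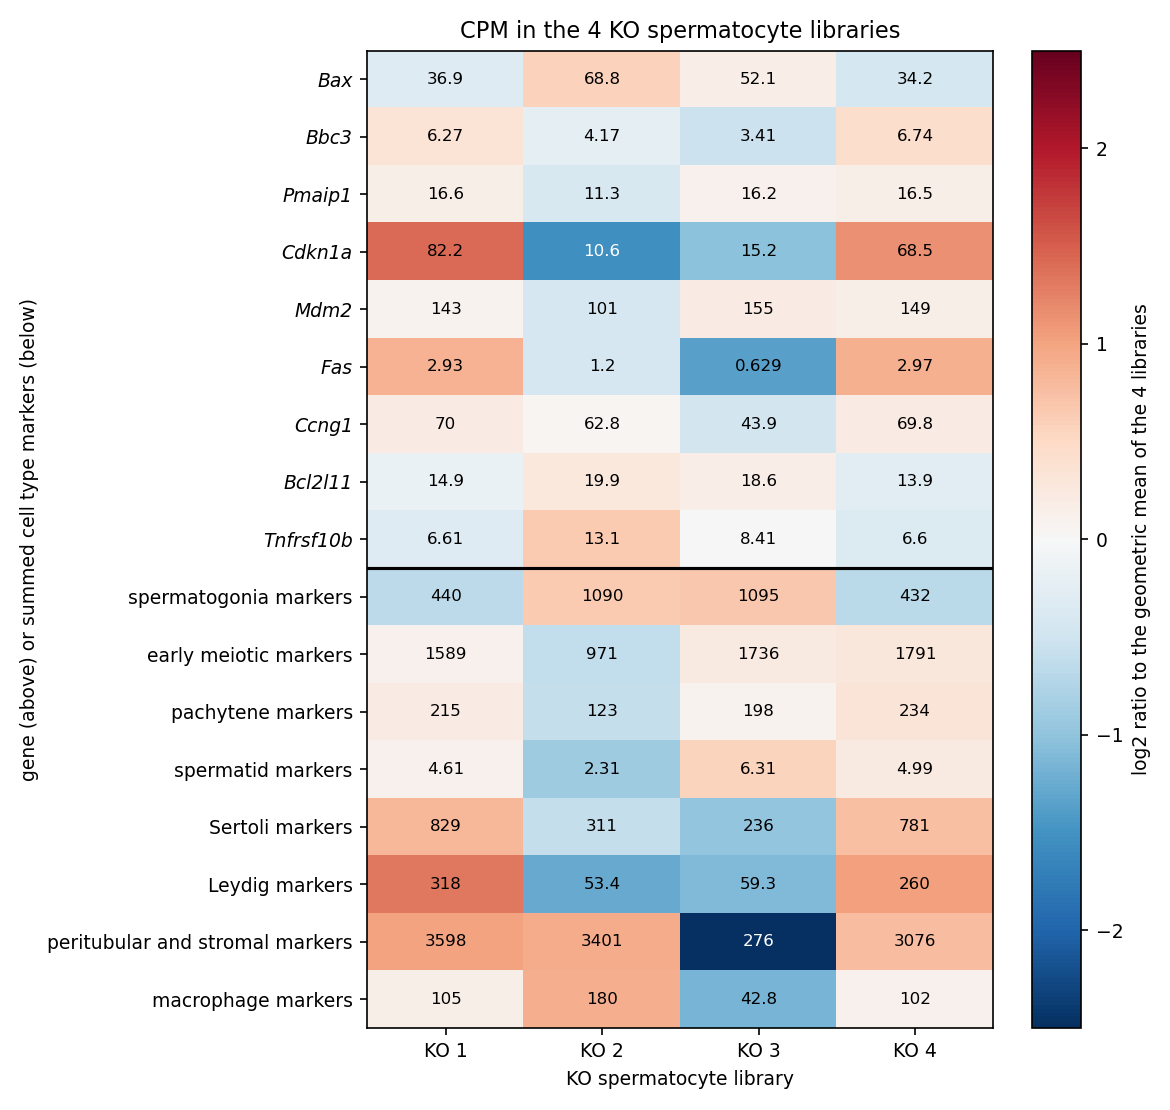
CPM of the 9 genes (above the line) and summed CPM of marker lists (below it) in the 4 KO spermatocyte libraries, as printed numbers. Colour is the log2 ratio of a library to the geometric mean of the 4, on a scale that ends at −2.5 and 2.5. Cdkn1a and Fas are red in libraries 1 and 4 together with Leydig and Sertoli markers, and Bax, Bcl2l11 and Tnfrsf10b are highest in library 2, where spermatogonial markers are high.

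Around these genes, 73 further genes of the p53 and apoptosis pathways were examined in 7 lists. In spermatogonia 0 of the 69 tested were called by edgeR, 3 had an unadjusted p under 0.05, and DESeq2 called 0. Those with the smallest p were Trp63, the BH3-only gene Bmf (log2 fold change 0.62, adjusted p = 0.614) and the testis cytochrome c gene Cyct (−0.98, adjusted p = 0.675). Cyct read 10.9 to 14.9 CPM in KO and 13.9 to 43.4 CPM in WT, with pachytene markers higher in WT as given above. The other genes named by the rule at this stage had log2 fold changes between −0.51 (Diablo, a mitochondrial death factor) and 0.49 (Bik), apart from Trp73 (0.69). In spermatocytes 51 of 71 were called, 40 higher and 11 lower, which is 71.8% against the 58.8% of all genes. Their median log2 fold change was 1.64, against 0.11. Without KO libraries 1 and 4 the count was 32, where 9203 of 24124 genes were called, and with libraries 1 and 4 of each genotype summed it was 30, where 8758 of 22276 were. Of the genes named below, Atm, Chek2, Eda2r, Btg2, Phlda3, Rrm2b, Bmf, Bok, Bik, Bad, Bcl2, Bcl2l1, Aifm1, Apaf1, Cyct, Cycs, Xiap, Birc3 and Birc6 kept their call in spermatocytes under each of the 17 alternatives, and the losses of the others are given with them.

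The p53 family comes first. Trp53, the gene of p53, read 38.1 to 57.2 CPM in KO and 19.0 to 27.6 CPM in WT spermatocytes, a log2 fold change of 1.06 (SE 0.23, adjusted p = 0.00223). This call was lost without WT library 1, without WT library 4, without KO libraries 1 and 4 and with replicates summed. In spermatogonia it read 48.3 to 67.1 CPM in KO and 54.8 to 62.3 CPM in WT. Trp63, whose product guards germ cells of the female, read 2.06 to 7.22 against 1.05 to 2.59 CPM in spermatocytes and was not called (1.44, adjusted p = 0.022), although it was called by DESeq2, with library totals, with the block and without KO library 2. Its stage difference was called (2.51, adjusted p = 0.00579), but the call was lost on leaving out any 1 of the 6 spermatogonia libraries, KO spermatocyte library 1, 4 or both, or WT spermatocyte library 4, and with replicates summed. In spermatogonia it had the smallest p of its list, at 0.582 to 0.745 CPM in KO and 1.23 to 1.61 CPM in WT (log2 fold change −1.12, adjusted p = 0.293). Trp73 stayed under 1 CPM in all libraries (0.32 in spermatocytes, adjusted p = 0.62). Of the 8 genes of the list, 3 were called higher and 3 lower in KO spermatocytes (75.0%, against 58.8% of all genes: 28.0% higher, 30.7% lower). The higher included the DNA damage kinases Atm (139 to 176 against 8.43 to 41.6 CPM, log2 fold change 2.98) and Chek2 (12.2 to 16.1 against 1.25 to 4.34 CPM, 2.18). The lower were the p53 phosphatase Ppm1d (−1.64), the MDM2 partner Mdm4 (−0.85) and Usp7 (−0.67), the deubiquitinase of MDM2 and p53. All 3 lost their call with library totals and without KO libraries 1 and 4. Mdm4 and Usp7 also lost it with the block and with replicates summed, and Usp7 without KO library 1, 3 or 4 or WT library 1, 2 or 4.

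Of 23 further p53 targets, 14 were called higher and 1 lower in KO spermatocytes (65.2%, against 58.8% of all genes: 28.0% higher, 30.7% lower). Eda2r, a death receptor of the TNF family, read 2.08 to 19.6 CPM in KO and 0.0309 to 0.335 CPM in WT, and the log2 fold change was 5.63 (SE 0.96, adjusted p = 0.000552). Btg2, an antiproliferative gene, read 39.8 to 156 against 0.73 to 7.81 CPM (4.81), Phlda3, an inhibitor of AKT, 14.3 to 43.8 against 0.557 to 3.26 CPM (4.18), and Rrm2b, the p53-inducible ribonucleotide reductase subunit, 13.9 to 23.8 against 0.8 to 5.03 CPM (3.21). All 4 were also called in the stage difference, where the block ended the calls of Eda2r and Btg2, replicates summed that of Rrm2b, and leaving out KO libraries 1 and 4 those of Btg2 and Rrm2b. Rrm2b was also lost there without KO spermatogonia library 2 or 3, WT spermatogonia library 1 or 3, or WT spermatocyte library 1 or 2. Zmat3, Perp, Sesn1, Trp53inp1, Tigar, Gtse1, Pidd1 and Sfn did not pass the test. Of these, library totals called Trp53inp1, Gtse1, Pidd1 and Sfn, the threshold of 0.05 Pidd1 and Sfn, DESeq2, no filter and the omission of WT library 4 Sfn, and the block and the omission of KO libraries 1 and 4 Zmat3.

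Among the other BCL2 family genes the pro-death list held 4 called higher and 2 lower of 7 in KO spermatocytes. This is 85.7%, against 58.8% of all genes (28.0% higher, 30.7% lower). The BH3-only gene Bmf (16.8 to 24.8 against 0.587 to 2.83 CPM, log2 fold change 3.91), Bok (3.38) and Bik (2.71) rose. Bad, another BH3-only gene, fell from 61.3 to 133 CPM in WT to 12.5 to 21.1 CPM in KO (−2.73), and Bak1, the partner of Bax in permeabilising mitochondria, was lower too, at 2.55 to 14.4 CPM in KO against 19.0 to 45.1 CPM in WT (adjusted p = 0.00934). The Bak1 call was lost with library totals, with replicates summed and without KO library 2 or 3 or WT library 1, 2 or 4. The anti-death list was mixed as well, with 2 of 4 tested called higher and 1 lower (75.0%, against the same 58.8%). Bcl2 read 1.66 to 12.6 CPM in KO against 0.0926 to 0.455 CPM in WT (4.84), and Bcl2l2 rose by 1.64 (adjusted p = 0.00445), a call lost with the block, with replicates summed, without KO library 1 or 4 or both, and without WT library 1, 2 or 4. Bcl2l1, the gene of BCL-XL, read 55.2 to 60.2 CPM in KO against 208 to 372 CPM in WT, and its log2 fold change was −2.43 (SE 0.22, adjusted p = 1.46e-05). Mcl1 did not pass the test (−0.26, adjusted p = 0.272).

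Of the 9 death ligands, receptors and adaptors tested, 55.6% were called in spermatocytes, near the 58.8% of all genes (28.0% higher, 30.7% lower). That share is thus no result about the list. The 5 called were all higher in KO spermatocytes. Tnfrsf21 (3.32), the TNF receptor gene Tnfrsf1a (3.15) and the adaptor Tradd (2.39) were among them, and none of these 3 was called with the block or without KO libraries 1 and 4, which had the highest Leydig and Sertoli marker sums of the 8 spermatocyte libraries. The part of those cells was not tested. Tradd was also lost without KO library 1, 2 or 4 or WT library 1 and with replicates summed, as was Tnfrsf1a with replicates summed. Tnfrsf1a read 9.99 to 68.1 CPM across the KO libraries. The ligand of FAS, Fasl, stayed at or below 0.335 CPM in every library and was too low to be tested here, and the TRAIL gene Tnfsf10 at or below 1.52 CPM (1.69, adjusted p = 0.064). Fadd, the adaptor of FAS, was not called (−0.01).

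Of 15 caspases and mitochondrial death factors 9 were called higher and 2 lower in KO spermatocytes (73.3%, against 58.8% of all genes: 28.0% higher, 30.7% lower). Aifm1, which encodes the apoptosis-inducing factor of mitochondria, rose (49.2 to 70.6 against 1.88 to 14.8 CPM, log2 fold change 3.26), as did Apaf1 (2.76), the scaffold of the apoptosome. Casp9, which APAF1 activates, did not pass the test (−0.06, adjusted p = 0.823). Cyct, the testis-specific cytochrome c, fell from 180 to 249 CPM in WT to 8.27 to 14.2 CPM in KO (−4.24, SE 0.26, adjusted p = 2.81e-06), while its somatic counterpart Cycs rose by 2.19. In KO spermatogonia Apaf1 was at 55.3 to 74.2 CPM, while KO spermatocytes held 48.4 to 55.6 CPM, and it was not called between the KO stages (−0.29). All 5 inhibitors of apoptosis passed the test in spermatocytes, where 58.8% of all genes did. Xiap (46.2 to 93.8 against 1.42 to 10.2 CPM, 4.24), Birc3 (3.92) and Birc6 (1.40) were higher, and Birc5 (−1.10), a gene of dividing cells, and Birc2 (−0.76) were lower. Birc5 lost its call with library totals, the block, replicates summed and without KO library 1 or 4 or both, and Birc2 in all alternatives but DESeq2, its size factors, the threshold of 0.05 and the omission of WT library 3. Genes that promote death and genes that restrain it were called in both directions.

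**Figure D4:**
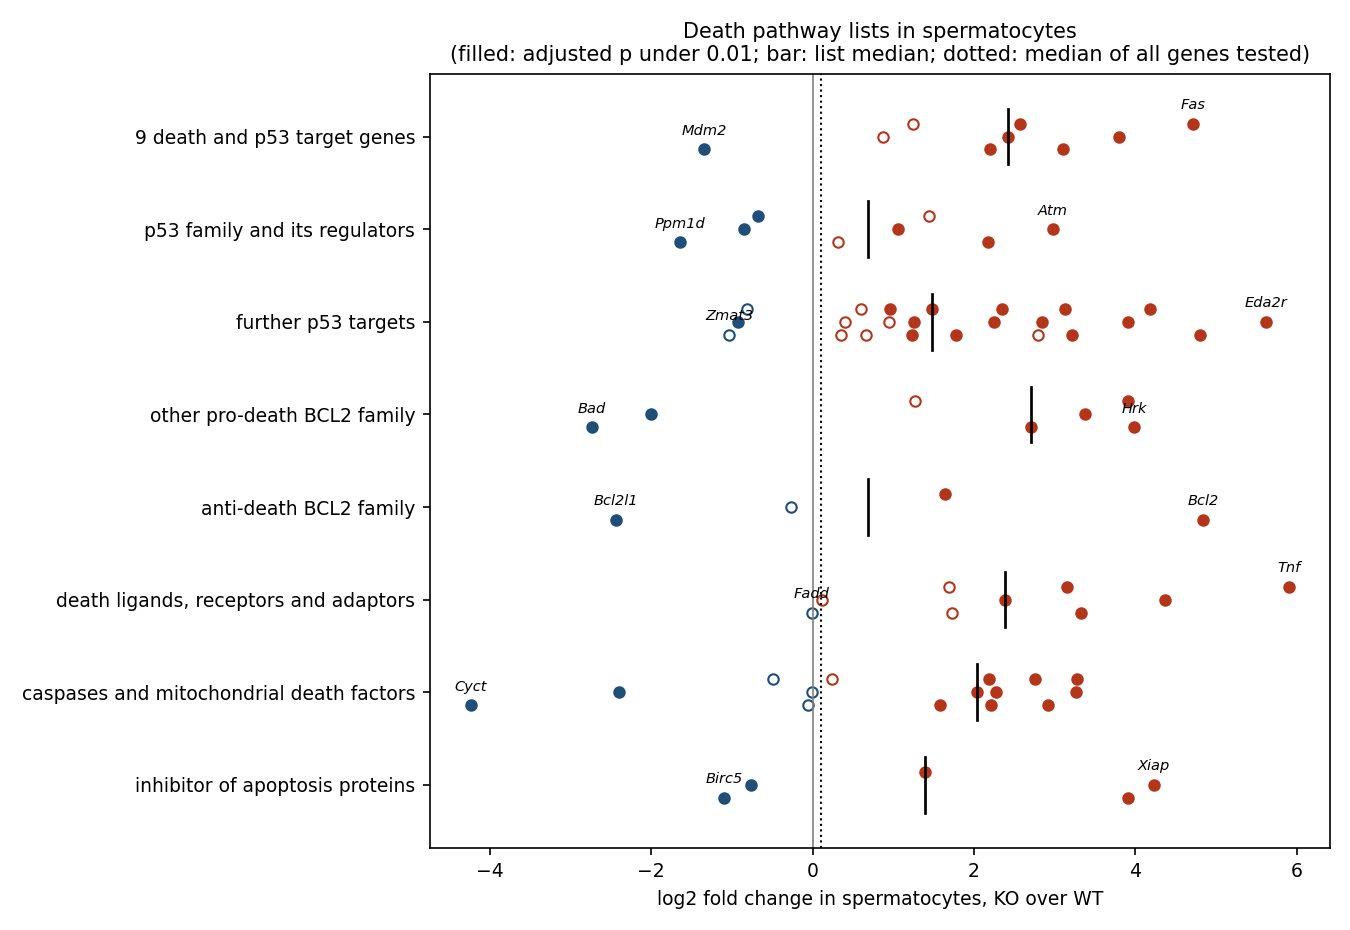
Log2 fold change of KO over WT in spermatocytes (horizontal axis) for each tested gene of the 9 and of the 7 pathway lists (rows), with the lowest and highest gene of each row named, except that the caspase row names its lowest alone. Filled points passed an adjusted p of 0.01, the short bar is the row median and the dotted line the median of all genes tested (0.11). Each row but the receptor list holds filled points on both sides of 0.

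In the test of the stage difference 24 of 72 pathway genes were called (33.3%, against 25.7% of all genes). From WT spermatogonia to WT spermatocytes 50 of 72 were called, 39 of them lower, against 52.5% of all genes, 23.3% lower. From KO spermatogonia to KO spermatocytes 2 of 72 were called, both higher, which is near the 3.05% of all genes (3.01% higher) and so no result about the lists. Those 2, named after their values were seen, were Trp63 (3.10, adjusted p = 0.00148) and the cytokine gene Tnf (6.77, adjusted p = 0.00378), which read up to 4.91 CPM in KO spermatocytes and at most 0.144 CPM in any library of the other groups. Tnf is a product of macrophages, whose markers summed to 42.8 to 180 CPM in KO spermatocytes, and the part of those cells was not tested. Neither of the 2 was called without KO spermatocyte libraries 1 and 4 or without any 1 of the 3 KO spermatogonia libraries. Tnf also lost its call with the block, with replicates summed and without KO spermatocyte library 1 or 4.

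The genes most like each member over the 14 libraries were named by the root mean square difference of gene-centred log2 CPM, as a description. For Bax they were Nop56 (0.13), Dynlrb1 and Adprhl2 (0.15 each), for Ccng1 Il6ra (0.15), Stard5 (0.18) and Plscr3 (0.21), and for Bcl2l11 Tgif2 (0.12), Tom1l1 and Spata5l1 (0.16 each). For Mdm2 they were Tlk2 (0.10), Leo1 and Ccnyl1 (0.11 each), for Bbc3 Rac1, Tmem43 (0.27 each) and Tgfb1 (0.28), and for Pmaip1 Pak4 (0.22), Dennd1b and Ncaph (0.23 each). For Cdkn1a they were Pdxk, Gm49394 (0.42 each) and Zcchc24 (0.44), for Fas Kcnip3 (0.29), Tppp3 (0.33) and Cachd1 (0.34), and for Tnfrsf10b Kif5a (0.22), Plcb3 (0.24) and Vegfb (0.26). No member was among the 3 nearest of another. The closest pair of members was Bax and Bcl2l11 (0.46), and many other genes were nearer to each.

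Because DNMT3C acts on retrotransposons, the transposon copies inside the 9 genes were also listed from the TPM values of single copies. The genes hold 202 annotated copies, of which 37 reached a mean of 0.5 TPM in either genotype of spermatocytes, 32 of them SINEs and 29 on the strand of the gene. Of these 37, 6 had all KO libraries higher and 1 all KO libraries lower than WT. Over the 343631 copies of the genome at that level 14.9% were apart in this way, 10.2% higher and 4.67% lower, so the count is near the background and no result about these genes. Mdm2 held 10 of the copies, of which 3 were apart with KO higher and 1 with KO lower. The 1 below, a RSINE1 copy, read 7.05 to 15.1 TPM in KO and 20.2 to 36.6 TPM in WT spermatocytes, in the direction of the gene itself. The 3 above went against the gene. An IAPLTR2_Mm copy, an endogenous retrovirus LTR, read 5.85 to 10.2 TPM in KO and at most 4.15 TPM in WT, a PB1D9 copy 9.25 to 17.0 TPM and at most 5.603 TPM, and a B1_Mus2 copy 4.75 to 8.06 TPM and at most 4.70 TPM. These copies were singled out after their values were seen. The remaining 3 were 2 copies of Bax and 1 of Cdkn1a, higher in KO. In spermatogonia 1 copy of Mdm2 was apart with KO higher and 1 each of Bax and Tnfrsf10b with KO lower, of 52 copies, against 7.51% of all copies, 4.96% higher and 2.55% lower. Reads of the gene and of a copy on its strand cannot be told apart in these values.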

How the data were processed

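RNA-seq of 14 libraries of sorted spermatogonia and spermatocytes was used as deposited. The authors trimmed reads with cutadapt 4.0 (as their processing notes list), aligned them with STAR 2.7.3a to GRCm38 with GENCODE M25, keeping up to 100 alignments per read, and counted genes and transposon subfamilies with TEtranscripts in stranded mode. These deposited counts are raw. The authors scaled single-copy transposon values to TPM over the copies alone. They left out 1 spermatogonia library per genotype for low RNA integrity. The third spermatogonia library of each genotype carries a different number in its column than in its title, and the title was followed.

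Counts were tested with edgeR 4.0.16 (R 4.3.3): filterByExpr, TMM over genes and transposon subfamilies, the two-sided quasi-likelihood test, and Benjamini-Hochberg adjustment over all features tested, and a feature was called below an adjusted p of 0.01. The stages were fitted apart. The stage comparisons and the difference of KO effects came from 1 fit of the 4 groups. SE was the log2 fold change over the root of F. CPM used TMM factors of the 14 libraries, and likeness used genes with a mean of at least 5 CPM and log2(CPM + 0.5). The scripts were tested on simulated counts. Totals of 40555726 to 53323651 counts per library set the precision, and 3 counts per library were taken as the floor.

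The 9 members and the 7 lists were chosen with earlier results of these data known. All members were named, with Trp53, Trp63 and Trp73. From each list up to 4 called genes with the largest log2 fold change were named, if their groups did not overlap and the mean count reached 100, or, where none was called, the 2 with the smallest p. Mdm4, Usp7, Bak1, Mcl1, Fadd, Fasl, Tnfsf10, Tnf, Casp9, Apaf1, Cycs, Birc2 and the further p53 targets that did not pass the test in spermatocytes were added after their values were seen. Some list members are counted but not reported here by name. Loci and exon lengths came from GENCODE M21 (GRCm38), which held 97.7% of the gene identifiers and the same versions of the 9 members.

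Deviations from the group means of same-numbered spermatogonia libraries correlated across features at r = 0.68, 0.18 and 0.25, each above 0.1, so the numbers were taken to pair these libraries, although KO library 2 correlated better with WT library 3 (r = 0.32) than with its own number, and the blocked count is given beside that comparison. The alternatives were a threshold of 0.05, the block, TMM from genes only, the size factors of DESeq2, library totals, no filter, the DESeq2 1.42.0 Wald test, spermatocyte replicates 1 and 4 summed, and each library left out. For the difference of KO effects the block was set within each stage. For the WT and KO stage comparisons it joined same-numbered libraries of different mice across stages and reflects no pairing.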

Additional observations from a re-analysis of the deposited data

Results flagged for a closer look

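Of 18 groups of 4 spermatocyte libraries, 3 had a library that stood apart by Dixon's test, which chance gives in about 1 of 20 groups. Pmaip1, the gene of the BH3-only protein NOXA, read 11.3 CPM in KO spermatocyte library 2, against 16.2 to 16.6 CPM in the other KO libraries. KO library 2 had the lowest sums of early meiotic (971 CPM, others 1589 to 1791), pachytene (123 CPM, others 198 to 234) and spermatid markers (2.31 CPM, others 4.61 to 6.31). It had the highest sum of macrophage markers (180 CPM, others 42.8 to 105), and the part of any of these cells was not tested. Cdkn1a, the gene of p21, read 5.77 CPM in WT spermatocyte library 3, against 2.32 to 2.44 CPM in the others. Mdm2 read 287 CPM in that same library, against 365 to 379 CPM. WT library 3 also had the highest sums of spermatogonial markers (272 CPM, others 37.1 to 151) and of spermatid markers (301 CPM, others 20.3 to 140) and the lowest of pachytene markers (4746 CPM, others 7048 to 7573), and the part of such cells was not tested.

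The KO effect differed between spermatocytes and spermatogonia, in the test of the difference itself, by 3.67 on the log2 scale for Cdkn1a, 3.02 for Ccng1, 2.09 for Bcl2l11 and −1.17 for Mdm2. Library totals ended the call of Mdm2 (−0.43, adjusted p = 0.124) and the replicate block that of Cdkn1a (3.31, adjusted p = 0.0187). The stages also differ in age, in sort and in the stages of meiosis that the genotypes reach, and these cannot be told apart.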

How the results depend on the processing

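In spermatogonia 0 members and 0 pathway genes were called under all 13 alternatives, while the count over all genes, 9, was 514 with DESeq2, 144 without the filter and 108 with the block. There the log2 fold changes that changed sign when 1 library was left out ranged from −0.0032 to 0.41 (Bbc3), −0.18 to 0.39 (Cdkn1a), −0.15 to 0.35 (Ccng1), −0.046 to 0.11 (Bcl2l11) and −0.45 to 0.22 (Tnfrsf10b). In spermatocytes 6 to 8 members were called with 1 library left out, and the pathway count of 51 was 30 with replicates 1 and 4 summed and 32 without KO replicates 1 and 4 (chosen after seeing the data). Same-numbered spermatocyte libraries correlated at 0.06, 0.19, −0.03 and 0.11, which does not pair them, and KO library 3 did not correlate best with its own number. With the replicate block 6 members, 40 pathway genes and 11439 genes were called there, Bbc3 being lost (2.81, adjusted p = 0.0111), as it also was with replicates summed and without KO replicates 1 and 4 (6 members each). Tnfrsf10b was called with DESeq2 and with library totals (1.90). For the difference between stages, the 4 members called became 7 at a threshold of 0.05, 6 with DESeq2 (Bax and Bbc3 added), 2 with replicates summed, 2 without KO replicates 1 and 4, and 1 to 7 with 1 library left out. With the block the 4 members called there had Bax in place of Cdkn1a, and with library totals 3 were called, without Mdm2. The 24 pathway genes became 46 at 0.05, 39 with DESeq2, 12 summed, 13 without KO replicates 1 and 4, and 14 to 39 with 1 library left out. The genes called there, 6251, were 9865 with DESeq2, 3521 summed and 3149 without KO replicates 1 and 4. Between the KO stages, the 0 members became 1 at 0.05 and 1 with DESeq2 (0 to 1 with 1 library left out). The 2 pathway genes became 6 at 0.05, 8 with DESeq2, 1 with the block, 1 summed, 0 without KO replicates 1 and 4, and 0 to 3 with 1 left out. The 742 genes became 2337 with DESeq2, 375 with the block, 346 summed and 219 without KO replicates 1 and 4. In this comparison the block joins libraries of different mice and reflects no pairing. Bbc3 between the KO stages changed sign with library totals (−0.070), without the filter (−0.0088), with replicates summed (−0.077), without KO replicates 1 and 4 (−0.46) and over single libraries (−0.22 to 0.20), and Pmaip1 without KO replicates 1 and 4 (−0.035). Between the WT stages 6 to 8 members were called over the alternatives, the additions being Pmaip1 and Cdkn1a. Fas between the WT stages changed sign with library totals (−0.20) and over single libraries (−0.19 to 2.52). The causes were not tested. Fas in WT and spermatogonia is limited by its 0 to 11 counts.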
